A study of Mus musculus with 68 samples.

Results

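The arrays described here measure what a dominant-negative form of Lhx3 changed in motor neurons that also expressed Pou3f1. They are the 2 arrays labelled Pou3f1;Lhx3 (DN) and the 2 arrays labelled Pou3f1 of cells sorted with the CD14 reporter, 4 of 68 arrays in the series. All 4 are labelled batch 6, and the labels do not say which step a batch shares. The series screened candidate determinants of phrenic motor neurons, the cervical motor neurons that drive the diaphragm, by inducing them in motor neurons made from mouse embryonic stem cells. The cells are labelled strain C57/BL6. Embryoid bodies received retinoic acid and Smoothened agonist on day 2 and were dissociated on day 5. Motor neurons were then enriched with magnetic beads through a surface reporter transgene, CD14 or CD2, that the labels call motor neuron-specific. The sorted cells were given doxycycline and cultured for 30 hours, so every group went through a sort for one of these reporters and received the drug. The DNLhx3 group carried both induced genes and the comparison group carried Pou3f1 only. YFP-induced CD14 cells of batch 6 (2 arrays) give the level without either factor. The effect of the same dominant-negative form without Pou3f1 was read from 2 arrays of CD2 cells of batch 3 against 4 YFP arrays of CD2 cells, from batches 1, 2 and 3. Those 6 arrays are none of the 4 above. No source used here gives the form of the dominant-negative Lhx3. Nothing in the labels says that the 2 replicates of a group were grown as separate cultures, so the scatter between them may be technical. The p-values rest on the scatter within groups over all 68 arrays of the fit, and not on that of these 4 alone.

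Lhx3 is a LIM homeodomain transcription factor. With Isl1 and the adaptor Ldb1 it forms a complex on DNA that switches on genes of motor neuron identity in newborn cells, and it is later kept mainly in the median motor column, which innervates axial muscle. A dominant-negative form of a factor is one made to interfere with the normal protein. Pou3f1, also called SCIP or Oct6, is a POU homeodomain factor found in phrenic motor neurons. Lhx1 marks lateral motor column neurons that grow into the dorsal limb, where the receptor EphA4 steers their axons.

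Beside Pou3f1, the dominant-negative Lhx3 lowered 9 of 15 measured general motor neuron genes and raised none of them. It raised the RNase P subunit gene Rpp25 13.9-fold and Lhx1 7.79-fold. It lowered the guidance genes Slit2, Sema3d, Unc5c and Plxna4, together with both miR-218 hairpins. Tmem207, which Pou3f1 had raised, lay back at the level of YFP cells. In all, 189 genes rose and 231 fell among 19938 tested (limma, adjusted p under 0.05), which is 0.948% and 1.16% of the genes, or 2.11% in both directions. Counts of genes that passed within a list below stand against these shares. A change of over 1 on the log2 scale, which is 2-fold, was passed by 60 of the rises and 100 of the falls. With 1 array left out the number of genes called was 192 without DNLhx3 replicate 1, 209 without Pou3f1 replicate 2, 239 without Pou3f1 replicate 1 and 289 without DNLhx3 replicate 2. Values below are the deposited log2 expression values. Differences are the DNLhx3 mean minus the Pou3f1 mean with the standard error (SE) of the fit, and adjusted p-values are limma's after Benjamini-Hochberg adjustment over all 19938 genes.

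The induced genes themselves were only partly visible on these arrays. The Lhx3 probe set read 8.39 and 8.45 on the DNLhx3 arrays, 8.25 and 8.07 on the Pou3f1 arrays and 7.77 and 7.87 on the YFP arrays. Its difference of 0.26 ± 0.28 did not pass the test (adjusted p = 0.91). On the 2 arrays of CD14 cells labelled Pou3f1;Lhx3, with Lhx3 itself, in batch 7 the same probe set read 11.65 and 11.64. Because the construct is not described, this probe set does not check the label. Pou3f1 read 9.66 and 9.24 with DNLhx3, 8.76 and 9.07 without it, and 8.45 and 8.48 with YFP. The DNLhx3 values of Pou3f1 were the higher ones, by 0.53 ± 0.19, but the difference did not pass (adjusted p = 0.178, and 0.00986 with CD14 arrays only in the fit). The part that a higher level of Pou3f1 transcript had in the results below was not tested.

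Among the LIM factors, Lhx1 rose and Isl1 and Lmo1 fell, and 18 of the 21 measured LIM homeodomain and cofactor genes did not pass the test. The median difference of the 21 genes was 0.08, beside 0.01 over all genes tested. Lhx1 read 11.88 and 11.81 with DNLhx3, 9.02 and 8.74 with Pou3f1 alone and 8.43 and 8.08 with YFP. Both DNLhx3 arrays stood far above the other 4, and the difference was 2.96 ± 0.38 (adjusted p = 1.13e-06). Isl1, the partner of Lhx3 in the motor neuron complex, read 11.96 and 11.84 against 12.88 and 12.94. The YFP arrays, at 12.88 and 12.97, overlapped with the Pou3f1 arrays, and with DNLhx3 Isl1 fell by 1.01 ± 0.15 (adjusted p = 1.14e-05). Lmo1, a LIM-only protein that binds Ldb1 without binding DNA, read 7.93 and 8.12 against 9.71 and 9.75, with 10.46 and 10.45 in YFP cells. The 3 groups did not overlap, and Lmo1 fell by 1.70 ± 0.19 (adjusted p = 9.03e-08).

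Other LIM genes did not pass the test. Isl2 read 12.21 on both DNLhx3 arrays against 12.03 and 12.12 (difference 0.14 ± 0.23). Ldb1 differed by 0.08 ± 0.09, and Ldb2, its relative, by 1.14 ± 0.33 (adjusted p = 0.0539). Lhx4, the close relative of Lhx3, read 10.79 and 10.64 against 10.22 on both Pou3f1 arrays, a difference of 0.49 ± 0.27 that did not pass (adjusted p = 0.596). In CD2 cells without Pou3f1 the dominant-negative form raised Lhx4 by 1.18 ± 0.25 (adjusted p = 0.00225). The difference between those 2 effects on Lhx4 was 0.69 ± 0.36 in size and did not pass (adjusted p = 0.969).

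The 15 general motor neuron genes had a median difference of -0.61 on the log2 scale, where the median of all genes was 0.01. Of the 15, 9 passed, all lower, where 1.16% of all genes tested fell. The 9 that fell included the 4 measured cholinergic genes: Chat, which makes acetylcholine, Slc18a3, which loads it into vesicles, Slc5a7, which takes choline back up, and Ache, which breaks acetylcholine down. Chat read 8.61 on both DNLhx3 arrays, 9.52 and 9.60 with Pou3f1 alone and 9.96 and 10.01 with YFP. The 3 groups did not overlap, and the fall was 0.95 ± 0.14 (adjusted p = 1.61e-05). Slc5a7 read 9.19 and 9.57 against 10.64 and 10.69, and fell by 1.29 ± 0.22 (adjusted p = 0.000196). Slc18a3 read 12.23 and 12.35 against 12.96 and 13.04, and Ache fell by 0.80 ± 0.18 (adjusted p = 0.00606). In all 3 genes with values given, both DNLhx3 arrays lay below both Pou3f1 arrays. The 2 groups were likewise apart in all 420 called genes, so this adds nothing to the calls. The adjusted p of Slc18a3 was 0.00139, and 0.0606 without DNLhx3 replicate 1. That of Ache lay between 0.0468 and 0.109 with 1 array left out, and 3 of those 4 fits lost the call.

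The neurofilament genes divided. Nefm, the medium chain, read 11.88 and 12.09 with DNLhx3, 13.29 and 13.26 with Pou3f1 and 13.32 and 13.43 with YFP, a fall of 1.29 ± 0.12 (adjusted p = 9.24e-10). Nefl, the light chain, fell by 0.34 ± 0.08 (adjusted p = 0.0105), and Prph, the peripheral intermediate filament peripherin, by 0.61 ± 0.16 (adjusted p = 0.0321). Nefh, the heavy chain, differed by 0.05 ± 0.18 and did not pass. Ret, the receptor through which GDNF supports motor neurons, fell the most of the list. It read 9.69 and 10.41 with DNLhx3 against 12.20 and 12.34, with 12.46 on both YFP arrays, so the 2 DNLhx3 arrays were the low ones and also differed from each other most. Ret fell by 2.22 ± 0.16, which is 4.66-fold (adjusted p = 1.52e-12). Mnx1, the motor neuron homeodomain factor Hb9, read 8.61 and 8.49 against 8.88 and 9.03 and did not pass (difference -0.40 ± 0.17, adjusted p = 0.353). Slc10a4 and the neuronal tubulin regulator Stmn2 also did not pass, with differences of -0.12 and 0.00. The calls of Nefl and Prph were lost with each of the 4 arrays left out, at adjusted p of 0.0714 to 0.14 for Nefl and 0.086 to 0.37 for Prph.

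**Figure D1:**
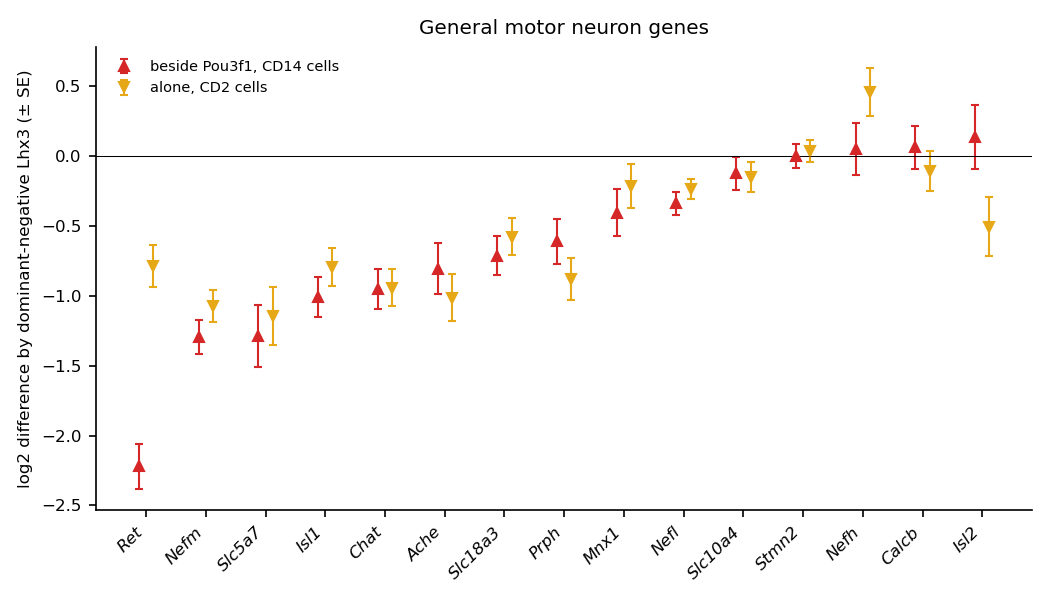
Log2 difference made by dominant-negative Lhx3 for the 15 measured general motor neuron genes, beside Pou3f1 in CD14 cells (red, 2 arrays against 2) and alone in CD2 cells (yellow, 2 arrays against 4), with standard errors of the fit. Most points of both colours lie below 0, Ret lies at -2.22 beside Pou3f1 and -0.79 alone, and Stmn2 lies at 0.

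Guidance molecules were among the larger changes. Of 40 measured guidance receptors and ligands, 4 rose and 8 fell, where 0.948% of all genes rose and 1.16% fell. Their median difference was -0.02, beside 0.01 over all genes tested. Sema3d, a secreted semaphorin, read 7.28 and 8.08 with DNLhx3 and 10.37 and 10.57 with Pou3f1. The DNLhx3 arrays were the lowest by more than 2 units. Sema3d fell by 2.79 ± 0.30 from Pou3f1 (adjusted p = 3.29e-08) and fell by 3.41 ± 0.30 from YFP. Unc5c, a netrin receptor that also sits among lateral motor column genes, read 8.81 and 9.47 against 11.56 and 11.59. YFP cells held the level of Pou3f1 cells (11.56 and 11.54), and the fall with DNLhx3 was 2.44 ± 0.22 (adjusted p = 6.37e-10). Its family member Unc5b fell by 1.46 ± 0.22 (adjusted p = 3.40e-05), whereas Unc5d rose by 1.12 ± 0.21 (adjusted p = 0.000566). Plxna4, a plexin of the semaphorin receptor, fell by 1.63 ± 0.21, and the neuropilins Nrp1 and Nrp2, which bind secreted semaphorins, fell by 0.84 ± 0.21 and 1.17 ± 0.20. With a Flag-tagged Pou3f1 line of batch 6 as control, Nrp1 did not pass (adjusted p = 0.62).

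Epha4, the receptor named above for dorsal limb growth, read 10.80 and 10.84 with DNLhx3 and 9.58 and 9.65 with Pou3f1. It rose by 1.20 ± 0.22 (adjusted p = 0.000643), and with YFP it read 9.33 and 9.39. Sema5a, a membrane semaphorin, rose by 1.46 ± 0.27, and the ephrin gene Efnb2 by 0.57 ± 0.13. Lhx1 and Epha4 were the 2 of 10 lateral motor column genes that rose and Unc5c the 1 that fell. Of 4 median motor column genes none passed in limma. At an unadjusted p under 0.05, 1 was lower, where 1937 of all 19938 genes lay under it in either direction. Of 5 hypaxial and preganglionic genes only Zeb2, a zinc finger homeobox repressor, passed. Zeb2 read 9.33 and 9.50 against 11.15 and 11.25, and fell by 1.79 ± 0.30 (adjusted p = 0.00012). With 1 array left out, Efnb2 lost its call in 3 of 4 fits (adjusted p 0.0496 to 0.153) and Nrp1 in 3 of 4 (0.0295 to 0.422).

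Slit2 and Slit3, ligands of Robo receptors that repel axons, both fell, and each contains a miR-218 hairpin gene within its bounds. miR-218 is a microRNA abundant in motor neurons. The array has transcript clusters for both hairpin loci, Mir218-1 in Slit2 and Mir218-2 in Slit3, named here after their values were seen. The RefSeq sequences (GRCm38.p6) are printed because both loci give the same 5p microRNA while their 3p products differ in seed. Capitals mark the seed, bases 2 to 8, in the mature forms, and the whole 5p microRNA in the hairpins. The hairpin of Mir218-1 lies at chr5:48223942-48224051 on the plus strand and that of Mir218-2 at chr11:35616816-35616925 on the plus strand.
mmu-miR-218-5p: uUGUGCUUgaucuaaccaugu
mmu-miR-218-1-3p: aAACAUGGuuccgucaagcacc
mmu-miR-218-2-3p: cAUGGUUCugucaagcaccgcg
Mir218-1 hairpin: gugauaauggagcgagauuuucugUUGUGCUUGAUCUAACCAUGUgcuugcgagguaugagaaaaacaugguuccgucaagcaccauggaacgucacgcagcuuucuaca
Mir218-2 hairpin: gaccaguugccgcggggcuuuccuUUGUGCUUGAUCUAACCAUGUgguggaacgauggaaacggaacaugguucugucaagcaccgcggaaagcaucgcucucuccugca

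Slit2 read 10.71 and 11.09 with DNLhx3, 12.68 and 12.65 with Pou3f1 and 12.77 and 12.83 with YFP. The 2 DNLhx3 arrays were the only low ones, and the fall was 1.76 ± 0.10 (adjusted p = 1.57e-15). Mir218-1 read 8.14 and 8.25 against 10.11 and 10.22, with 10.63 and 10.57 in YFP cells, and fell by 1.97 ± 0.35 (adjusted p = 0.000377). Slit3 read 10.55 and 10.44 against 11.11 on both Pou3f1 arrays, and fell by 0.61 ± 0.13 (adjusted p = 0.00482). Mir218-2 read 8.59 and 8.61 against 9.88 and 9.74, and fell by 1.21 ± 0.32 (adjusted p = 0.033). In each pair, then, the hairpin and the gene around it fell together. Probes of a hairpin locus can also read the intron of the host transcript, and the mature microRNA was not measured. In CD2 cells without Pou3f1, Slit2 fell by 1.11 ± 0.09 and Mir218-1 by 1.63 ± 0.33 (adjusted p = 0.00147), while Slit3 (-0.31) and Mir218-2 (-0.83) did not pass. The fall of Slit2 was larger beside Pou3f1 by 0.65 ± 0.13 (adjusted p = 0.0272), and that of Mir218-1 did not differ by the test (adjusted p = 0.994). Slit3 lost its call in 3 of the 4 fits with 1 array left out (adjusted p 0.0329 to 0.094) and Mir218-2 in all 4 (0.165 to 0.255). Without batch terms in the fit Mir218-1 gave an adjusted p of 0.051.

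**Figure D2:**
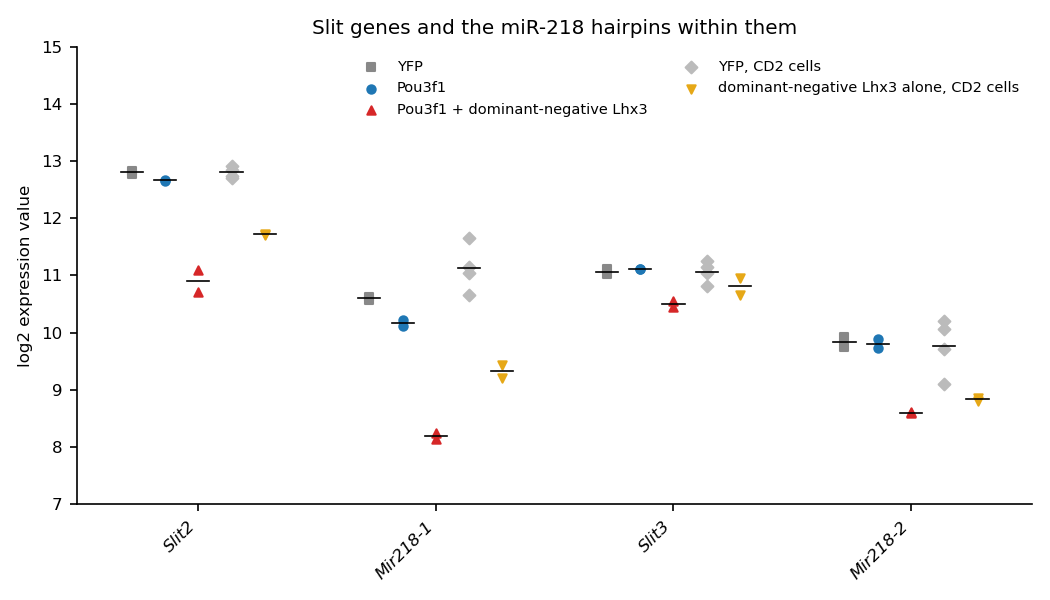
Log2 value on each array (points) and group mean (lines) of Slit2, Slit3 and the 2 miR-218 hairpin loci, for CD14 cells of batch 6 and for CD2 cells. Red triangles, Pou3f1 with dominant-negative Lhx3, are the lowest of the CD14 values in all 4 genes, for example 8.14 and 8.25 for Mir218-1.

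Cadherins are adhesion molecules through which motor neurons sort into pools. Of 28 measured cadherins and protocadherins, 6 fell and none rose, with a median of -0.13. Over all genes tested, 1.16% fell and 0.948% rose. Cdh12, a type II cadherin, read 9.05 and 8.99 with DNLhx3, 11.65 and 11.86 with Pou3f1 and 10.31 and 10.08 with YFP. The DNLhx3 arrays were thus below YFP as well, and the fall from Pou3f1 was 2.74 ± 0.43 (adjusted p = 3.96e-05). Pcdh7 read 8.76 and 9.51 against 11.34 and 11.38 and fell by 2.23 ± 0.18 (adjusted p = 3.44e-11). Pcdh9, like Pcdh7 a non-clustered protocadherin, fell by 1.63 ± 0.19 (adjusted p = 1.34e-07). Cdh8 read 7.78 and 8.75 against 10.26 and 9.91, Cdh10 8.73 and 9.12 against 9.63 and 9.80, and Cdh6 10.98 and 11.39 against 11.91 and 11.96. The adjusted p of these 3 type II cadherins were 0.0309, 0.0281 and 0.00358. Each lost its call in 2 or 3 of the 4 fits with 1 array left out, up to 0.556 for Cdh8, 0.512 for Cdh10 and 0.273 for Cdh6, the highest in each case without DNLhx3 replicate 1. Across all 16 alternatives the adjusted p of Cdh8 ran from 0.00119 to 0.692.

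Of 12 phrenic motor neuron genes, Hoxa5 and Negr1 rose, Cdh6 and Cdh10 fell and 8 did not pass (median 0.14). Hoxa5, a Hox factor required for phrenic motor neurons, read 11.29 and 11.16 with DNLhx3, 9.93 and 9.79 with Pou3f1 and 9.58 and 9.10 with YFP. The difference was 1.36 ± 0.36 (adjusted p = 0.0295), and none of the 4 fits with 1 array left out kept the call (adjusted p 0.127 to 0.257). Hox paralogues 1 to 5 had a median of 0.47, and Hoxa2 and Hoxa5 rose of the 14 measured, where 0.948% of all genes rose. Hoxb2, Hoxb4 and Hoxb5 had differences of -0.39, -0.24 and -0.26 that did not pass. None of 23 paralogues 6 to 13 passed. At an unadjusted p under 0.05, 6 of the 14 and 2 of the 23 were higher and none lower, where 1937 of all 19938 genes lay under it in either direction. Hoxa2 rose by 0.59 ± 0.16 (adjusted p = 0.0314, and 0.0365 to 0.512 with 1 array left out). Negr1, an adhesion protein of the IgLON family, read 10.07 and 10.42 against 9.13 on both Pou3f1 arrays and rose by 1.11 ± 0.21 (adjusted p = 0.00091, and 0.0576 without DNLhx3 replicate 2). Pcdh10 differed by 0.03 ± 0.19, Alcam by 0.04 ± 0.35 and Ptn by -0.33 ± 0.28, and for Pcdh10 and Alcam the arrays of the 2 groups overlapped.

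The genes that Pou3f1 itself raised did not respond alike. Pou3f1 raised 260 genes in CD2 cells (1.30% of those tested), on arrays that none of the 4 arrays here belong to. When DNLhx3 was added in CD14 cells, 34 of these 260 rose (13.1%), 17 fell (6.54%) and 209 did not pass, with a median of 0.05. Over all genes tested, 0.948% rose and 1.16% fell. Not all of the 260 had been raised by Pou3f1 in CD14 cells. Of the 157 genes that Pou3f1 lowered in CD2 cells, 3 rose (1.91%), 28 fell (17.8%) and 126 did not pass (median -0.06). The 10 genes most raised by Pou3f1 in CD2 cells, a set added after the values were seen, show the range: 2 rose, 3 fell and 5 did not pass. In CD14 cells Pou3f1 raised 8 of the 10 against YFP, where it raised 0.246% and lowered 0.0602% of all genes (0.306% together).

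Tmem207, which encodes a transmembrane protein, was the clearest loss. It read 6.48 and 6.76 with DNLhx3, 9.57 and 9.58 with Pou3f1 and 6.91 and 6.78 with YFP. Pou3f1 had raised it by 2.73 ± 0.26 (adjusted p = 3.87e-08), and with DNLhx3 the level lay 0.22 ± 0.26 below YFP, which did not pass (adjusted p = 0.911). With Lhx3 itself beside Pou3f1 it read 11.03 and 10.96, where the YFP arrays of that batch read 6.61 and 6.51. Cdh9, the type II cadherin that Pou3f1 raised by 3.73 ± 0.62, read 7.34 and 7.85 with DNLhx3, 9.58 and 9.62 with Pou3f1 and 5.86 and 5.87 with YFP. The 3 groups did not overlap. The difference of -2.01 ± 0.62 did not pass (adjusted p = 0.0901), and over 16 alternatives its adjusted p ran from 0.000104 to 0.563 and passed in 6 of them. Mro fell by 1.00 ± 0.21 from 9.47 and 9.58 to 8.67 and 8.37 (adjusted p = 0.00225, and 0.0597 without Pou3f1 replicate 2 and 0.0929 without DNLhx3 replicate 2).

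Of the others, Cdh10 is given above, 2 rose and 4 did not pass. Inpp4b, a phosphoinositide phosphatase, read 8.65 and 8.52 with DNLhx3, 8.51 and 8.50 with Pou3f1 and 6.45 and 6.50 with YFP. The difference of 0.08 ± 0.27 did not pass, and both induced groups stood 2 units over YFP. Lmo3, a LIM-only gene, differed by -0.24 ± 0.42. Crym, a thyroid hormone binding protein, differed by 0.16 ± 0.29 and Cadps2, which acts in dense-core vesicle release, by -0.78 ± 0.37. Crym and Cadps2 are the 2 of the 10 that Pou3f1 did not raise by the test in CD14 cells (adjusted p of 0.483 and 0.0986). Dlk1, a transmembrane protein of the Notch ligand family, read 12.36 and 12.02 with DNLhx3, 10.30 and 10.09 with Pou3f1 and 9.05 and 8.89 with YFP, so each step was higher than the last, and the second rise was 2.00 ± 0.25 (adjusted p = 4.22e-07). C1ql4, a secreted C1q-like synaptic protein, read 11.31 and 10.85 against 9.65 and 9.61, with 8.29 and 8.09 in YFP cells. It rose by 1.45 ± 0.27 (adjusted p = 0.000782, and 0.0705 without DNLhx3 replicate 1).

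**Figure D3:**
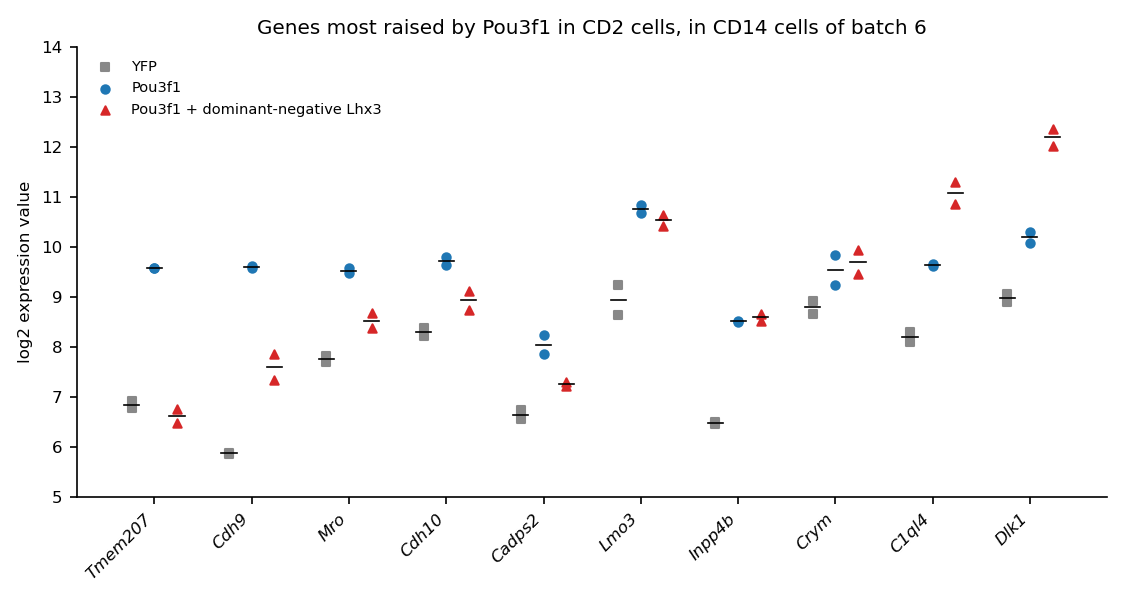
Log2 value on each array of CD14 cells of batch 6 (points) and group mean (lines) for the 10 genes most raised by Pou3f1 in CD2 cells, ordered by the difference that dominant-negative Lhx3 made. Tmem207 falls back to the YFP level (6.48 and 6.76 against 6.91 and 6.78), Inpp4b stays at the Pou3f1 level and Dlk1 goes above it.

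The 15 largest rises covered 1.89 to 3.80 on the log2 scale, and all 15 also passed against YFP, a comparison that reuses the DNLhx3 arrays by which they were chosen and in which 2.12% of all genes stood above YFP and 1.89% below (4.00% together). Rpp25 read 11.91 and 11.79 with DNLhx3, 8.12 and 7.99 with Pou3f1 and 7.30 and 7.18 with YFP, a rise of 3.80 ± 0.26 (adjusted p = 8.56e-13). Vstm2a, a secreted immunoglobulin-domain protein, read 12.44 and 12.62 against 10.20 and 9.66, and Cbln4, a cerebellin that organises synapses, 10.23 and 10.76 against 8.19 and 7.76. Their rises were 2.60 ± 0.39 and 2.52 ± 0.20. Kcnip4, a subunit that modulates A-type potassium channels, rose by 2.46 ± 0.27, from 6.98 and 7.22 to 9.57 and 9.54. Its level also varied between batches: YFP arrays of CD14 cells read 7.70 and 7.93 in batch 6 and 9.56 and 9.67 in batch 7. Bnc2, a zinc finger protein, and Car10, a carbonic anhydrase-related protein, rose by 2.35 and 2.21, and for both the Pou3f1 mean lay 0.05 above YFP, which did not pass. Reln, the extracellular protein reelin that guides neuronal migration, read 10.10 and 9.83 against 7.96 and 7.69 and 7.03 and 7.06 with YFP, and rose by 2.14 ± 0.16. The remaining rises were Tmem163, Dlk1, Dgkk, Ptprk, Cntnap4, Pmfbp1 and Myc, between 1.89 and 2.03. Myc, a growth-promoting transcription factor, read 11.41 and 11.49 against 9.56 on both Pou3f1 arrays and 9.81 and 9.76 with YFP. Pmfbp1 had the widest replicates, 9.73 and 8.66, and did not pass with the 4 arrays fitted on their own (adjusted p = 0.0653).

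The 15 largest falls covered 2.02 to 3.08, and 13 of them were also called below YFP, on the same DNLhx3 arrays. Uts2b, a urotensin-related peptide, fell most. It read 6.95 and 7.14 with DNLhx3, 10.08 and 10.17 with Pou3f1 and 10.30 and 10.40 with YFP, a fall of 3.08 ± 0.28 (adjusted p = 3.64e-10). Sst, the peptide somatostatin, read 9.62 and 10.70 against 12.68 and 12.60, with 13.56 and 13.63 in YFP cells, and fell by 2.48 ± 0.34. Shisa6, an auxiliary protein of AMPA receptors, fell by 2.53 ± 0.30 and Kcnk9, a background potassium channel, by 2.10 ± 0.34. Chodl, chondrolectin, a gene of fast motor neurons, read 6.67 and 6.94 against 8.93 and 9.10. Th, the enzyme that makes the precursor of dopamine, read 9.70 and 10.10 against 11.81 and 12.02 and 13.03 and 12.64 with YFP, and fell by 2.02 ± 0.28. Slc18a2, which loads monoamines into vesicles, fell with it by 0.86 ± 0.21 (adjusted p = 0.014, and 0.0467 to 0.221 with 1 array left out). Pappa2, a protease that frees insulin-like growth factors, Dlc1 (-2.03 ± 0.14) and Mgat4c made up the rest with genes given above. Mgat4c (-2.15 ± 0.51, adjusted p = 0.0104) lost its call in 3 of 4 fits with 1 array left out (0.031 to 0.216), and Kcnk9 lost it without batch terms (0.184).

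**Figure D4:**
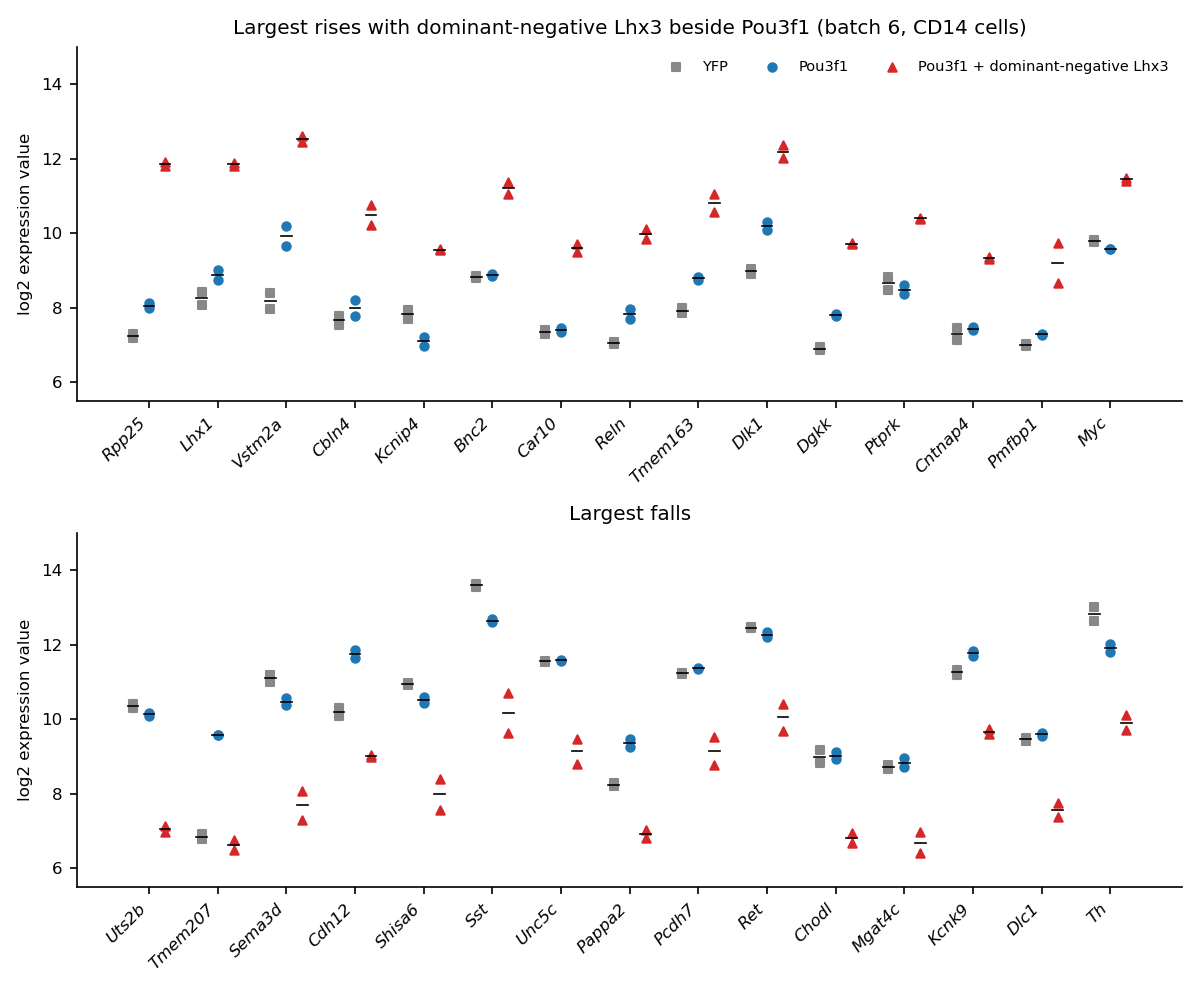
Log2 value on each array (points) and group mean (lines) for the 15 largest rises (top) and 15 largest falls (bottom), in CD14 cells of batch 6 that expressed YFP, Pou3f1, or Pou3f1 with dominant-negative Lhx3. Rpp25 stands at 11.91 and 11.79 with both factors against 8.12 and 7.99 with Pou3f1, and Tmem207 is the fall where the YFP arrays (6.91 and 6.78) sit with the low group.

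Receptors for trophic factors changed in both directions. Of 15 measured, Ntrk2 and Bdnf rose and Ret, Ngfr and Met fell, where 0.948% of all genes rose and 1.16% fell. Ntrk2, the receptor TrkB, read 9.41 and 9.28 against 7.93 and 7.79 and 7.16 and 7.21 with YFP, and rose by 1.48 ± 0.18 (adjusted p = 4.22e-07). Its ligand Bdnf rose by 0.43 ± 0.12 (adjusted p = 0.0335). Met, the receptor of hepatocyte growth factor, fell by 1.07 ± 0.26 (adjusted p = 0.0161). Ngfr, the p75 receptor, fell by 0.55 ± 0.15, to 12.47 and 12.44 (adjusted p = 0.0434). Bdnf and Ngfr lost their calls with each of the 4 arrays left out (0.0603 to 0.505 and 0.221 to 0.246) and Met with 3 of them (0.0313 to 0.329).

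Most markers of other cell types did not pass. The 10 lists for V2a, V2b, floor plate, dorsal, hindbrain, neural crest, glial, mesodermal, epithelial and pluripotent cells had no gene that passed in limma. They were grouped by that outcome, so the absence of a pass among their 86 measured entries is no separate result. At an unadjusted p under 0.05 these entries had 3 higher and 3 lower, where 1937 of all 19938 genes lay under it in either direction. The grouping left out the lists with a call, which can lower this count. Of 9 measured V0 and V1 interneuron genes 1 rose, which was Lhx1, while Pax2 (0.18), En1 (0.19) and Evx1 (0.29) did not pass. Of 4 V3 genes, Uncx rose by 0.87 ± 0.15 (adjusted p = 0.000124) and Sim1 did not pass. Uncx read 8.63 and 8.54 against 7.77 and 7.67. Of 7 V2a genes, whose fate Lhx3 drives in the embryo, none passed and the median was 0.32, with Sox14 at 0.32 ± 0.17. Their mean level was 8.37 to 8.38 with DNLhx3, 8.02 to 8.13 with Pou3f1 and 7.71 to 7.73 with YFP. The 7 include Lhx3 and Lhx4 themselves. With DNLhx3 alone in CD2 cells 2 of the 7 rose, of which Lhx4 is given above, where 2.00% of all genes rose. Among 16 progenitor and newborn motor neuron genes, Nkx6-1 rose by 0.94 ± 0.22 (adjusted p = 0.00958) and Nkx6-2 by 0.80 ± 0.20 (adjusted p = 0.0215), both homeodomain factors of the ventral progenitor zone. Among 15 radial glia genes Nkx6-1 rose and Vim fell by 0.32 ± 0.08. Nkx6-1 lost its call in 3 of the 4 fits with 1 array left out (up to 0.246), and Nkx6-2 and Vim in all 4 (up to 0.245 and 0.232).

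The lists for cell cycle (19 genes, median 0.22), Notch targets (12, median 0.23), stress (14, median -0.02) and voltage-gated channels (28, median -0.04) had no gene that passed in limma. At an unadjusted p under 0.05 there were 5 channel genes higher and 5 lower and none in the other 3 lists. Over all 19938 genes, 1937 lay under that p in either direction, a smaller share than among the channel genes. The mean level of the cell cycle list was 9.63 to 9.75 with DNLhx3 and 9.42 to 9.56 with Pou3f1, beside 9.54 to 9.70 with YFP. Of 17 neuropeptide genes Sst fell and Adcyap1, which encodes PACAP, rose by 0.83 ± 0.19 (adjusted p = 0.00853). The call of Adcyap1 was not kept in every fit with 1 array left out. YFP arrays of CD14 cells read 7.27 and 7.28 for it in batch 6 and 8.39 on both arrays in batch 7, beside 8.03 and 7.77 with DNLhx3. Of 18 synaptic genes Syt4 fell by 1.02 ± 0.23 (adjusted p = 0.0064, and up to 0.265 with 1 array left out). In sorted cell populations, fewer cells of a type and less RNA per cell cannot be told apart, which touches each fall given here. The part of residual progenitors or other cell types in these differences was not tested beyond the levels stated.

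Without Pou3f1, in CD2 cells, dominant-negative Lhx3 raised 399 genes and lowered 416 against YFP, 2.00% and 2.09% of those tested and 4.09% together. These 815 calls became 333 without DNLhx3 replicate 2, 459 without YFP replicate 2 of batch 3 and 1784 without YFP replicate 1 of batch 3. The 2 comparisons share no array. Of the 189 rises beside Pou3f1, 106 were also called higher alone. Of the 231 falls, 136 were also called lower alone. These shared calls are 56.1% of the rises and 58.9% of the falls beside Pou3f1, and 26.6% and 32.7% of the rises and falls alone. No gene was called in opposite directions. The median effect alone was 0.59 for the rises and -0.63 for the falls, where it was 0.79 and -0.90 beside Pou3f1, the comparison in which they were chosen. Across all genes, which are not independent replicates, the 2 sets of differences had a Pearson r of 0.523 and a Spearman rho of 0.356. Rpp25 and Lhx1 led in both, with 4.90 ± 0.25 and 4.10 ± 0.36 alone. Of the general motor neuron genes 8 fell and none rose alone, with a median of -0.58.

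The effects with and without Pou3f1 differed by the test in 25 genes, 0.125% of those tested. Of these, 7 (0.0351%) had the more positive effect beside Pou3f1 and 18 (0.0903%) the more negative. The reporter line, the batch and the presence of Pou3f1 all differ between these 2 comparisons and cannot be told apart. Among named genes that passed, Tmem207 had the largest negative difference, -2.76 ± 0.36 (adjusted p = 4.39e-05). In CD2 cells its values were 6.25 and 6.13 with DNLhx3 and 6.36 to 6.67 with YFP, so it was low there in both. Sst read 13.54 and 13.30 with DNLhx3 in CD2 cells and 12.86 to 14.21 with YFP, an overlap, and its effects differed by -2.28 ± 0.47 (adjusted p = 0.0267). Ret fell by 0.79 ± 0.15 alone, and its effects differed by -1.43 ± 0.22 (adjusted p = 0.00038).

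Lamp5 and Dlx1 rose more alone, and Reln, Bmp2, Foxd4, C1ql4 and Cntnap4 more beside Pou3f1. Lamp5, a neuronal membrane protein, rose from 6.84 to 7.37 with YFP to 10.50 and 10.34 with DNLhx3 in CD2 cells, but from 7.15 and 7.12 to 8.07 on both arrays beside Pou3f1. Its effects differed by -2.42 ± 0.24 (adjusted p = 6.07e-08). The homeobox gene Dlx1 rose by 2.13 ± 0.15 alone and differed by 0.50 ± 0.16 beside Pou3f1 (adjusted p = 0.109), a difference of effects of -1.63 ± 0.22 (adjusted p = 5.19e-05). In the other direction, Reln rose by 0.64 ± 0.15 alone against 2.14 ± 0.16 beside Pou3f1 (adjusted p of the difference = 0.000276). Bmp2, a secreted growth factor, read 7.90 and 7.83 beside Pou3f1 with DNLhx3 against 6.24 and 5.93 without, and 6.38 and 6.72 against 6.46 to 7.26 in CD2 cells. Its effects differed by 2.10 ± 0.36 (adjusted p = 0.00231), and those of the forkhead gene Foxd4 by 1.27 ± 0.22 (adjusted p = 0.00309). The adhesion gene Cntnap4 had a difference of 1.48 ± 0.24 (adjusted p = 0.00105). The number of genes that passed was 10 and 15 without DNLhx3 replicates 1 and 2 of CD2 cells, and 45 and 15 without YFP replicates 1 and 2 of batch 3. It was 14 without replicate 1 of Pou3f1 with DNLhx3, and 13 and 12 without Pou3f1 replicates 1 and 2.

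**Figure D5:**
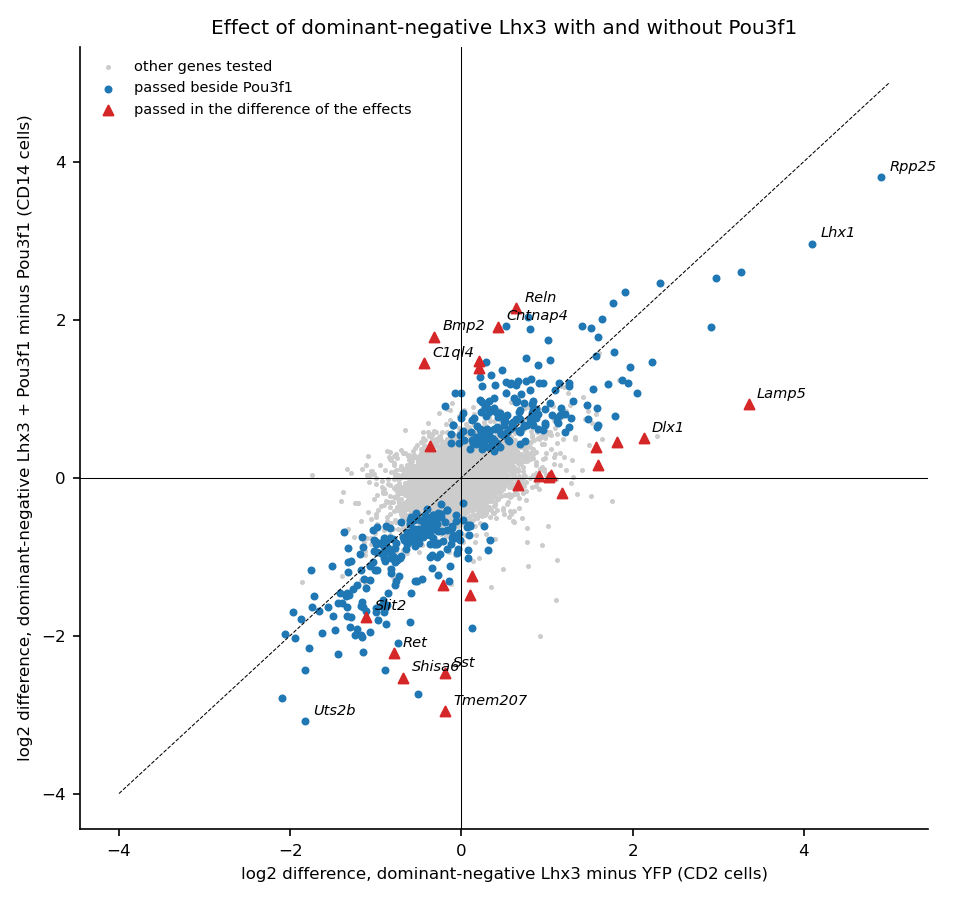
Log2 difference made by dominant-negative Lhx3 alone in CD2 cells (horizontal axis) against that beside Pou3f1 in CD14 cells (vertical axis), 1 point per gene over 19938 genes, with the line of equal effects dashed. Blue points passed the test beside Pou3f1, and red triangles are the 25 genes whose 2 effects differed by the test, whether or not they passed beside Pou3f1. Rpp25 and Lhx1 lie at the upper right, and Tmem207 and Sst fall beside Pou3f1 with differences of -0.20 alone.

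The genes changed by the dominant-negative form were also read under Lhx3 itself. The 2 arrays of Lhx3 alone in CD2 cells are of batches 5 and 6, where no YFP array of CD2 cells lies, so those values rest on batch terms fitted through other lines. Of the 189 genes that rose with DNLhx3 beside Pou3f1, 26 rose and 4 fell with Lhx3 alone against YFP in CD2 cells, where 1.67% and 2.14% of all genes did (3.81% together). Of the 231 that fell, 8 rose and 38 fell. Against YFP in CD14 cells, Lhx3 with Pou3f1 raised 46 and lowered 4 of the 189, and raised 19 and lowered 65 of the 231, with 2.21% and 1.73% of all genes higher and lower (3.94% together). Unlike the DNLhx3 comparison, this one also holds the effect of Pou3f1. Pou3f1 alone against YFP in CD2 cells raised 34 and lowered 3 of the 189, and raised 17 and lowered 28 of the 231. Over all genes it raised 1.30% and lowered 0.787% (2.09% together). Rpp25 rose under Lhx3 too. It read 10.62 and 10.31 with Lhx3 alone against 7.18 to 7.67 with YFP in CD2 cells (3.21 ± 0.38 after batch terms), and with Lhx3 and Pou3f1 it rose by 1.68 ± 0.26. Uts2b rose by 1.04 ± 0.28 with Lhx3 and Pou3f1 (adjusted p = 0.0208) and fell with DNLhx3. Sst fell with both, and with Lhx3 and Pou3f1 it read 9.31 and 8.54, a fall of 4.05 ± 0.34 from YFP. Pou3f1 alone also lowered Sst from YFP in CD2 cells, by 2.11 ± 0.27 (adjusted p = 3.93e-06). In CD14 cells the difference of Pou3f1 from YFP was -0.95 ± 0.34 and did not pass.

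Promoters of the changed genes were searched for 2 short sequences, on both strands, in the 300 bases from 250 before to 50 after each RefSeq start. TAATTA is the core that homeodomain proteins of the LIM class bind, and ATGCAAAT is the octamer that POU proteins bind. A gene counted if any of its promoters held the sequence. TAATTA was found in 10 of 146 rises with a promoter in the table (6.85%) and in 15 of 172 falls (8.72%), where 788 of all 15563 tested genes with a promoter had it (5.06%). Changed genes had more promoters each. Counted per promoter, TAATTA was in 5.26% of 209 for the rises and 6.97% of 244 for the falls. For the genes tested it was in 4.25% of 19116 promoters. Counted by gene, the octamer was in 0.685% of the rises, 1.16% of the falls and 1.9% of the genes tested. A match is a description of these letters and not a binding site. Of 74 named genes with a promoter, 6 held TAATTA (8.11%): Lmo1, Tmem163, Uncx, Bnc2, Mgat4c and Tmem207. Upstream parts of 3 promoters are shown as examples, with TAATTA in capitals: Lmo1 fell, and Tmem163 and Uncx rose. They are from GRCm38.p6, at chr7:109175208-109175457 on the minus strand for Lmo1, chr1:127678022-127678271 on the minus strand for Tmem163 and chr5:139543648-139543897 on the plus strand for Uncx. The sequence begins 186 bases before the start of Lmo1 and 36 before that of Tmem163, and Uncx has 2 copies. Another Lmo1 promoter, not shown, holds it 244 bases before its start.
Lmo1: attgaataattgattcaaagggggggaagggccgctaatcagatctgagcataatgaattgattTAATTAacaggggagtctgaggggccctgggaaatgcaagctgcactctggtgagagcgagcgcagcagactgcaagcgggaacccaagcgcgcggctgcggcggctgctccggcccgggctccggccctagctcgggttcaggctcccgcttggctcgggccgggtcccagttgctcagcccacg
Tmem163: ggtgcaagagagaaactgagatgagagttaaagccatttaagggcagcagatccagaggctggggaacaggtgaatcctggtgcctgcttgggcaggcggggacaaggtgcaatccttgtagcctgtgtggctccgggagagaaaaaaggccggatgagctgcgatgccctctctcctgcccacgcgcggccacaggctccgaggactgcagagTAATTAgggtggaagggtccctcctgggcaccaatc
Uncx: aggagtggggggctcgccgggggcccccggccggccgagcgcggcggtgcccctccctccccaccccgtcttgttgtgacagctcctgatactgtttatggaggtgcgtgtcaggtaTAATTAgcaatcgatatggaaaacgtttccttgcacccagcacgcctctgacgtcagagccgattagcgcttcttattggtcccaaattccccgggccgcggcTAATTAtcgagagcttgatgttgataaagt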

How the data were processed

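RNA of 68 Affymetrix mouse gene arrays was deposited by the authors as log2 values for 35556 transcript clusters. Per the submitters' processing notes, RMA of the oligo package produced the log2 values, correcting background, normalizing quantiles and summarising probes. Their versions: not given in the sources used here. Scanner intensities were not used here. A change shared by most genes would be hidden by quantile normalization, and the number of arrays limits the precision.

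Genes were named through the platform annotation and a RefSeq table. Of the clusters, 21789 had 1 symbol, 1621 several and 12146 none, and 21698 matched RefSeq. Clusters with 1 symbol were kept, and the brightest per gene (999 genes had several), which left 19938 genes. All 68 arrays entered a single limma 3.58.1 model (R 4.3.3) with 1 term per group and 1 per batch (37 columns, 31 residual degrees of freedom) through lmFit and eBayes. Because both main groups were in batch 6, the estimate is the difference of their means. Tests were two-sided with Benjamini-Hochberg adjustment over all 19938 genes at a threshold of 0.05. The script was tested on simulated data drawn for the main comparison over 19938 genes, where 93% of genes changed by 1 on the log2 scale and 100% of those changed by 2 were recovered, with 11 false calls. Same-numbered replicates did not deviate together (correlation -0.04 in the main groups and -0.03 in batch 3), so numbers were not treated as pairs. The arrays within a group correlated at 0.987 to 0.997, and at most 2 genes had identical values.

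Named genes are the 15 largest rises and 15 largest falls, up to 4 called members of each list, 18 genes always given, of which 1 is not reported here, and the 5 largest in each direction alone and in the difference. RIKEN, predicted, LOC, olfactory, vomeronasal and small nucleolar genes were counted but not named. Named after their values were seen were the 10 genes most raised by Pou3f1 in CD2 cells, both miR-218 loci, Slit3, Ache, Prph, Nefl, Unc5b, Unc5d, Sema5a, Efnb2, Nrp1, Nrp2, Bdnf and Ldb2, as were list members given only by a value that did not pass. The groups, lists and rules were chosen with earlier results of these data known. Alternatives changed the arrays in the fit, the batch terms, normalization, dim-gene filter, cluster rule, variance model, array weights, replicate block, control line and single arrays.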

Additional observations from a re-analysis of the deposited data

Results flagged for a closer look

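Among the genes named here, 12 had effects of dominant-negative Lhx3 that differed between the setting beside Pou3f1 in CD14 cells and the setting alone in CD2 cells, by limma's test of the difference. The effect beside Pou3f1 was the more positive for Bmp2 (2.10), C1ql4 (1.88), Reln (1.5), Cntnap4 (1.48) and Foxd4 (1.27), in log2 units. It was the more negative for Tmem207 (-2.76), Lamp5 (-2.42), Sst (-2.28), Shisa6 (-1.85), Dlx1 (-1.63), Ret (-1.43) and Slit2 (-0.65). Shisa6 passed most narrowly, at an adjusted p of 0.0493.

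Over 94 named genes, a single YFP array of CD2 cells stood apart from the other 3 in 6. Chance alone gives about 1 such case in 20, or 4.7 among 94, so the count is near that rate. The batch 1 array read 8.87 for Vstm2a, 11.52 for Pcdh7 and 8.71 for Epha4. Replicate 1 of batch 3 read 8.70 for Kcnip4 and 8.83 for Pappa2, and replicate 2 of batch 3 read 12.41 for Kcnk9. These arrays enter the effect alone and the difference of the effects, and not the comparison beside Pou3f1.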

How the results depend on the processing

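The 420 calls beside Pou3f1 became 973 with batch 6 CD14 arrays only, 1502 with all CD14 arrays only, 187 with no batch terms, 1162 with array weights and 1653 with the Flag-tagged Pou3f1 line as control, and 192 to 289 with 1 array left out. The 815 calls alone became 356 with CD2 arrays only, 197 with the batch 3 arrays of the groups compared, 458 with no batch terms and 333 to 1784 with 1 array left out. The 25 differing effects became 4 with the arrays of the groups compared only, 59 without batch 4, 9 with no batch terms, 44 with array weights, 80 with the Flag-tagged control and 10 to 45 with 1 array left out. The cause of these shifts was not tested. The replicate block gave 685 calls beside Pou3f1 and 405 alone, and a paired fit of the difference was not run. The other alternatives stayed within 1.5 times the main counts. Of 77 called genes named here, 42 kept their call under every alternative run and 35 lost it under at least 1, 26 of them with a single array left out. No named gene reversed its direction among the called. Of 17 named genes not called, 6 passed under at least 1 alternative: Cdh9, Mnx1, Pou3f1, Dlx1, Cadps2 and Ldb2. The number of arrays, 2 a group, limits the precision, and signal over background was not examined.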
